A study of Homo sapiens with 4 samples.

Results

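The genes described here are 75 genes of the motile cilium among the 36601 genes counted in human enteric ganglioids. They are every gene whose symbol begins with CFAP, DNAH, DNAAF, DNAI, RSPH or DRC followed by a number, together with CDC20B, DEUP1, CCNO, MCIDAS, FOXJ1, FOXN4, C4orf47, HYDIN, SPAG17 and SPAG6. By role they comprised 37 CFAP and central apparatus genes, 14 rows of axonemal dynein heavy chains, 11 radial spoke and nexin-dynein regulatory genes, 7 dynein intermediate chains and assembly factors, and 6 genes of multiciliation. C4orf47 is the gene RefSeq now calls CFAP96, and DNAH10OS is an opposite-strand transcript counted with the heavy chains because of its symbol. The set was drawn up with the difference between PP121 and control samples already known, CDC20B, C4orf47, CFAP299 and CFAP47 being among the genes that differed most. Levels in that contrast, in every class of nuclei, therefore chose the members and are given below as a description. Counts of called members in that contrast stand beside the share of all genes called, and nothing is read from them, since the choice of members bears on them.

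Ganglioids were grown in suspension from H9, a line of human embryonic stem cells, by way of enteric neural crest cells. 2 control samples were compared with 2 samples that had received 2 uM PP121, a small-molecule kinase inhibitor, from day 15 to day 20. Each sample was a pool of ganglioids, and the labels number the differentiation replicates 1 and 2 in each group without saying whether samples of the same number shared a differentiation. The annotation deposited with each sample dates replicate 1 of both groups to day 42 and replicate 2 to day 38, so day and differentiation replicate cannot be told apart. The paper names a single day that lies between them. For both control samples the sample name inside the annotation differs from the label: it names control replicate 2 in the file of control replicate 1 and a stage 2 control in that of control replicate 2. The labels were followed here, so which control sample is which, and with it the day comparison, rests on them. Nuclei were isolated and their RNA was counted from the 3′ end with molecular identifiers (UMIs). All samples came from 1 cell line, and p-values measure the spread between 2 samples per group.

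A motile cilium beats because dynein arms slide the microtubule doublets of its axoneme past one another. The arms are built from heavy chains (DNAH) and intermediate chains (DNAI) and are put together in the cytoplasm by assembly factors (DNAAF). Radial spokes (RSPH), the nexin-dynein regulatory complex (DRC) and the central apparatus (HYDIN, SPAG17, SPAG6 and several CFAP proteins) coordinate the beat, and other CFAP proteins line the inside of the doublets. Cells with many motile cilia, such as those of the airway, the ependyma and the choroid plexus, first amplify their centrioles in a programme switched on by GMNC and MCIDAS, with FOXJ1 and RFX factors driving the axonemal genes, FOXN4 acting beside them, and CCNO and DEUP1 serving centriole amplification. CDC20B lies next to CCNO and MCIDAS and hosts the miR-449 family, which is known for its part in multiciliation. Enteric neurons and their progenitors are not known for motile cilia, while nearly all cells can form a primary cilium, which has intraflagellar transport but no dynein arms.

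The miR-449 sequences are shown because they lie inside CDC20B, which is described in detail below. The miRNAs themselves were not measured. RefSeq (GRCh38.p14) places hsa-miR-449a at chr5:55170586-55170607, hsa-miR-449b-5p at chr5:55170706-55170727 and hsa-miR-449c-5p at chr5:55172313-55172337, all on the minus strand and inside CDC20B, which spans chr5:55112971-55173177. Capitals mark the seed, bases 2 to 8 of the mature miRNA.
hsa-miR-449a: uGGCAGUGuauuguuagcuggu
hsa-miR-449b-5p: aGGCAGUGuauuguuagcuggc
hsa-miR-449c-5p: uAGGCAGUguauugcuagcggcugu
miR-449a and miR-449b-5p share the seed GGCAGUG, and miR-449c-5p carries the same letters shifted by 1 base.

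A short motif that the choice of members did not use was searched in their promoters. The half-site of RFX factors, GTTGCCA on either strand, stood within 250 bases before to 50 bases after the start of 20 of the 62 members with a RefSeq promoter (32.3%), against 955 of 18146 genes (5.26%). It was found in 36 of 136 other motile cilia genes (26.5%) and in 10 of 50 primary cilium genes (20.0%). The forkhead core TGTTTAC, searched on both strands as well, stood in 3 of the 62 members (4.84%) and in 3.93% of all genes. Among members higher in the Unknown class described below the RFX half-site stood in 11 of 33, and among the others in 9 of 29. Windows of 4 members of high ratio in that class are shown as examples with the half-site in capitals, which reads TGGCAAC where it lies on the other strand. Each is written 5′ to 3′ on the strand of the gene and ends at or before the base preceding the annotated start.
CFAP45, chr1:159900166-159900210, minus strand: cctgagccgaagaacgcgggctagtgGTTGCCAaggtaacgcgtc
CFAP74, chr1:2003804-2003863, minus strand: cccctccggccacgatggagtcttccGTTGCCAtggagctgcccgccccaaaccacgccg
CFAP126, chr1:161367877-161367928, minus strand: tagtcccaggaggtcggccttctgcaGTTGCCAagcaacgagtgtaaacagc
DNAI2, chr17:74274030-74274089, plus strand: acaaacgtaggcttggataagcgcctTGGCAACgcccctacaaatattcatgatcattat
The half-site lay 12 bases before the start of CFAP45, 44 before that of CFAP74, 19 before that of CFAP126 and 171 before that of DNAI2. A match is a string of letters and was not tested as a binding site.

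The 4 samples held 14812 annotated nuclei of 25306 deposited, 2912 to 4587 per sample, with 23348045 to 34123759 UMIs. The deposited annotation divides them into enteric neurons, progenitor 1, progenitor 2, mesenchymal, epithelial and a class labelled Unknown. Neuron markers of the study summed to 9264 CPM (UMIs per 1000000 UMIs of the same nuclei) in the neurons and to 958 CPM in the Unknown class. The 4 samples shared 20 nuclear barcodes pairwise. Below, 4 values in a row always follow the order control replicate 1, control replicate 2, PP121 replicate 1, PP121 replicate 2.

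All 75 members had at least 1 UMI in annotated nuclei, 158014 UMIs together, and 73 had 40 or more. The exceptions were MCIDAS with 2 UMIs and CCNO with 35. In most classes the members were present at a low and even level. Their summed level was 1070, 1026, 1153 and 1151 CPM in enteric neurons. It was 884, 760, 972 and 875 CPM in progenitor 1 and 1380, 1309, 1508 and 1588 CPM in progenitor 2. Progenitor 2 was above the neurons and the neurons were above progenitor 1 in each sample. Mesenchymal nuclei held 849, 1002, 972 and 1173 CPM. Epithelial nuclei, of which each sample had 9 to 37, held 2188, 1624, 1965 and 2105 CPM. The Unknown class was highest in each sample, with 3110, 2642, 5452 and 9711 CPM, and there both PP121 samples lay above both control samples.

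**Figure D1:**
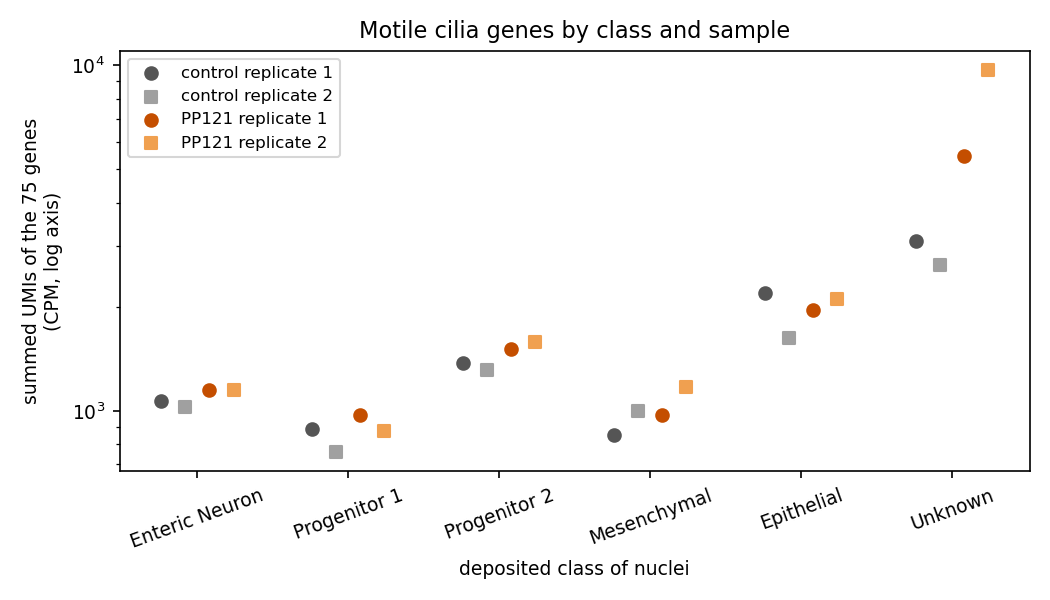
Summed level of the 75 motile cilia genes (CPM, logarithmic axis) in each deposited class, 1 point per sample, by treatment and replicate. The Unknown class sits at 2642 to 9711 CPM and the neurons and progenitors between 760 and 1588 CPM.

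Counts are not per length, so the members with the most UMIs are named without comparing their levels. DNAH14, an inner arm heavy chain gene spanning 469.6 kb, had the most UMIs in each named class. It was followed by CFAP36 and DNAH2 in neurons, CFAP20 and CFAP36 in progenitor 1, CFAP44 and DNAAF4 in progenitor 2, CFAP44 and CFAP97 in mesenchymal nuclei and CFAP221 and DNAH7 in epithelial nuclei. In the Unknown class the leading members were CFAP47, HYDIN and DNAH14. DNAH14 stood at 192, 242, 271 and 327 CPM in neurons, 115, 179, 162 and 194.4 CPM in progenitor 1, 238, 249, 333 and 366 CPM in progenitor 2 and 283, 274, 336 and 362 CPM in the Unknown class.

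The Unknown class held 568 nuclei, 3.83% of the annotated nuclei and 4.64% of their UMIs, but 18.6% of all member UMIs. By sample it held 12.7%, 5.45%, 20.5% and 31.3% of the member UMIs. The class was drawn by the study on the same counts, so the following is a description. Of the 73 members with at least 40 UMIs, 40 (54.8%) were higher in the Unknown class than in neurons, progenitor 1 and progenitor 2 in each of the 4 samples, against a background of 6.44% of 23789 genes. The same held for 73 of 153 other motile cilia genes (47.7%) and for 9 of 58 primary cilium genes (15.5%). The other motile cilia genes are a longer list of axonemal and centriole genes outside the 75.

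**Figure D2:**
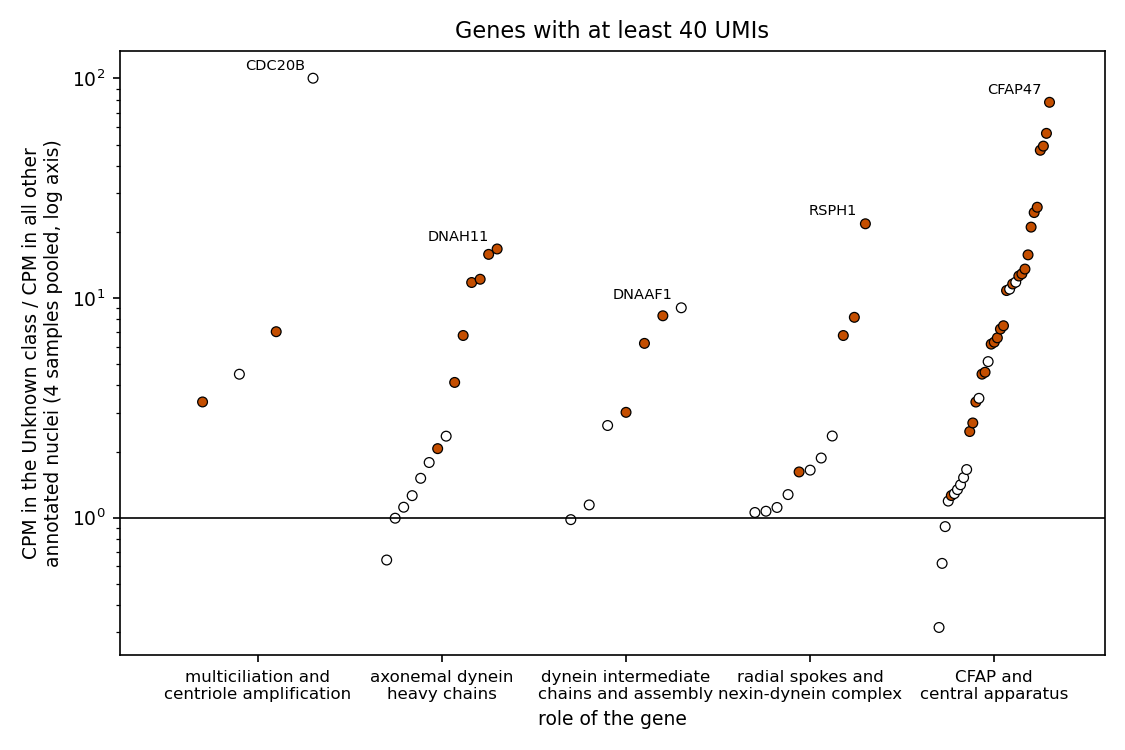
Ratio of the pooled level in the Unknown class to that in all other annotated nuclei (logarithmic axis) for members with at least 40 UMIs, grouped by role, with filled points for the 40 members above neurons and both progenitor classes in each sample. Ratios run from 0.316 for CFAP97D1 to 100 for CDC20B, and most members lie above 1.

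Among members with at least 40 UMIs, CFAP and central apparatus genes had the highest pooled ratios after CDC20B. CFAP47, a gene of chromosome X (chrX:35919734-36385317) whose product belongs to the central apparatus, reached 185, 135, 504 and 1027 CPM in the Unknown class. Outside that class it stood at 6.20, 4.28, 5.91 and 9.21 CPM, a pooled ratio of 77.9. The classes did not overlap in any sample. CFAP299 (chr4:80321265-80963750) reached 5.24, 34.2, 138 and 492 CPM in the Unknown class and 2.25, 2.35, 4.36 and 5.17 CPM elsewhere, a ratio of 49.2. CFAP45 and CFAP52, which line the inside of the doublets, had ratios of 56.3 and 47.1. CFAP45 stood at 10.5, 5.41, 25.7 and 44.6 CPM in the Unknown class and between 0.339 and 0.454 CPM outside it. HYDIN, a scaffold of the central apparatus, stood at 193.8, 155, 326 and 593 CPM in the Unknown class and at 19.3, 14.1, 25.9 and 24.04 CPM elsewhere. SPAG17 and SPAG6, both of the central apparatus, had ratios of 11.6 and 12.6. Not all of the group followed: CFAP20, which also stabilises doublets, was lower in the Unknown class (20.4, 27.03, 23.6 and 28.4 CPM) than elsewhere (41.4, 37.5, 38.7 and 37.3 CPM), and CFAP410 had a ratio of 0.910.

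Among the heavy chains, the outer arm genes DNAH5 and DNAH11 had ratios of 15.8 and 16.7 and the inner arm genes DNAH7 and DNAH6 had ratios of 12.2 and 11.8. DNAH11 stood at 146, 160, 266 and 369 CPM in the Unknown class against 7.28, 13.8, 9.21 and 33.4 CPM elsewhere. DNAH9, the other outer arm chain of motile cilia, stood at 83.2, 52.3, 155 and 323 CPM there and at 47.9, 34.8, 39.7 and 30.7 CPM elsewhere. DNAH17, known as an outer arm chain of sperm, was not higher in the class, with a ratio of 0.641, and DNAH8 had a ratio of 1.51. DNAH10 and DNAH10OS, which share a locus, had ratios of 1.12 and 0.994, and the counting was not stated to separate strands.

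The intermediate chains DNAI1 and DNAI2 had ratios of 6.22 and 8.30 and were higher in the class in each sample. Of the assembly factors, DNAAF1 had a ratio of 9.03, with 4.07, 7.21, 35.6 and 76.1 CPM in the Unknown class and 3.42 to 3.64 CPM elsewhere. DNAAF2 and DNAAF5, with ratios of 0.979 and 1.14, did not set the class apart. Among the spoke and regulatory genes, RSPH1, a spoke head protein, had a ratio of 21.8 and DRC1, the base of the regulatory complex, a ratio of 8.17. RSPH4A had a ratio of 2.35 and RSPH14 of 1.06, and RSPH10B and RSPH10B2, near-identical copies whose reads may be split between them, had 1.11 and 1.27.

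The member UMIs of the Unknown class were not spread evenly over its nuclei. Its median nucleus drew 0.279% of its UMIs from members, against medians of 0.0753% to 0.171% in the other classes. By sample the median of the class was 0.258%, 0.165%, 0.312% and 0.324%, with both PP121 samples above both control samples, and its highest nucleus was at 1.77%, 1.51%, 7.07% and 5.42%. A limit of 1%, set after these values were seen, marked 39 nuclei, called member-rich below. The nuclei nearest to the limit were at 1.00% inside and 0.998% and 0.985% outside. All 39 were in the Unknown class, and the highest nucleus of any other class came at rank 92 by this share.

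**Figure D3:**
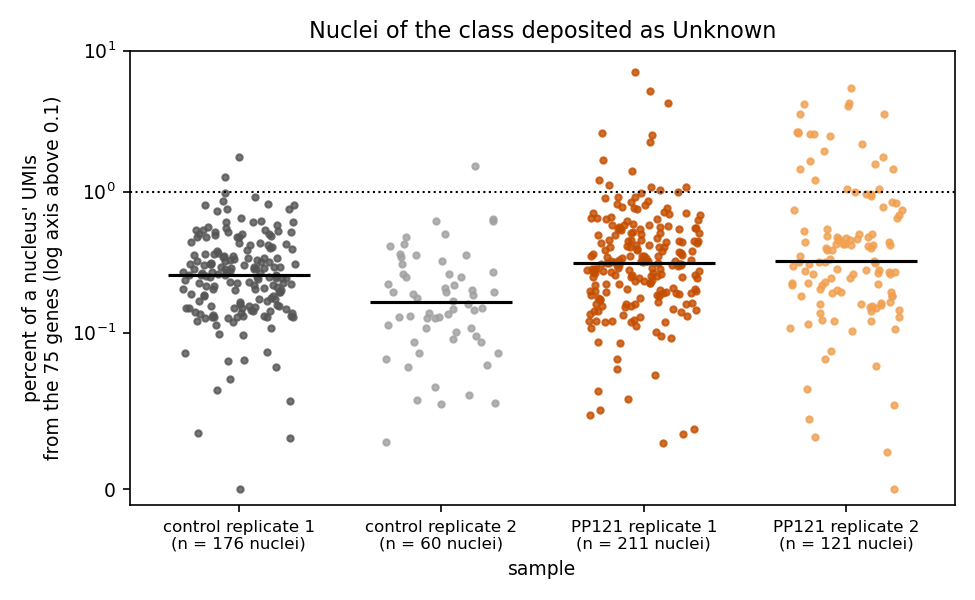
Share of UMIs from the 75 genes (percent) in each nucleus of the Unknown class by sample, with bars at the medians, a dotted line at the 1% limit and an axis that is logarithmic above 0.1%. Nuclei over the limit number 2 and 1 in the control samples and 13 and 23 in the PP121 samples.

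Member-rich nuclei were 2 of 176, 1 of 60, 13 of 211 and 23 of 121 nuclei of the Unknown class. That is 1.14%, 1.67%, 6.16% and 19.0%, with exact (Clopper-Pearson) 95% intervals of 0.138% to 4.04%, 0.0422% to 8.94%, 3.32% to 10.3% and 12.4% to 27.1%. The interval of PP121 replicate 1 overlapped those of both control samples, and that of PP121 replicate 2 overlapped neither. Such intervals cover counting error only. Outside the class they were 0 of 4107, 2970, 4376 and 2791 nuclei, which allows shares of up to 0.0730%, 0.101%, 0.0686% and 0.107%. The 39 nuclei were 0.263% of all annotated nuclei and 0.469% of their UMIs but carried 8.77% of the member UMIs, 0.384%, 1.02%, 8.49% and 23.0% by sample. Their median UMI count was 12902, against 8078 in the other Unknown nuclei, and the median share of ribosomal protein UMIs was 0.525% against 0.796%; the part of either in the result was not tested. Neuron markers summed to 781 CPM in them, and the glial list to 31.1 CPM against 26.8 CPM outside the class. The epithelial list summed to 47.6 CPM against 17.9 CPM outside the class, with CDH1, KRT19 and CLDN4 of its 6 genes at 0 UMIs; its part in the result was not tested.

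Without the member-rich nuclei, the Unknown class still stood above the other classes. Its summed level was then 3034, 2221, 3479 and 3570 CPM, and 38 of 73 members (52.1%) were higher than in neurons and both progenitor classes in each sample, against a background of 5.91%. CFAP47 was then at 181, 110, 251 and 257 CPM and HYDIN at 188, 115.5, 251 and 213 CPM. CFAP299 was at 5.27, 5.59, 10.1 and 50.3 CPM. The 2 PP121 samples remained above the 2 control samples in the summed level, by less than with all nuclei of the class.

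CDC20B was read mostly in a few nuclei. It had 43, 29, 564 and 235 UMIs in the 4 samples. Outside the Unknown class the counts were alike, 40, 29, 40 and 39 UMIs or 1.23, 1.19, 1.24 and 1.77 CPM, and 0.828%, 0.842%, 0.823% and 1.18% of those nuclei had a UMI. Inside it the counts were 3, 0, 524 and 196. Of the 524 UMIs, 349 came from 1 nucleus and 521 from 3, and of the 196 UMIs, 154 came from 1 nucleus and 179 from 3.

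Several genes next to CDC20B on chromosome 5 were read in these nuclei too. CCNO (chr5:55231152-55233608) had 0, 0, 6 and 20 UMIs in the Unknown class and 1, 0, 3 and 5 outside it. MCIDAS (chr5:55219564-55227315) had 2 UMIs in all, both in PP121 replicate 2 and in 2 member-rich nuclei. GZMA, which is known as a protease of cytotoxic lymphocytes and ends 2.7 kb from the 3′ end of CDC20B on the opposite strand, had 71 UMIs in the class, all in member-rich nuclei of the PP121 samples (35 and 36), and 14 UMIs outside the class. GZMK, further along, had none. GPX8, which lies inside CDC20B, was at 40.3 CPM in member-rich nuclei and at 4.29 CPM outside the class. Since the counting was not stated to use strand, reads of CDC20B, GPX8 and the end of GZMA may not be separable. DHX29 and MTREX, on the far side of CCNO, were at 98.9 and 104 CPM in member-rich nuclei and at 94.8 and 183 CPM outside the class.

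FOXN4, a forkhead factor of the multiciliation programme, had 0, 0, 14 and 9 UMIs in the Unknown class and 17, 26, 16 and 46 outside it. FOXJ1, the forkhead factor that drives axonemal genes, had 4, 3, 9 and 10 UMIs in the class and was among the members higher there in each sample. DEUP1, a scaffold of the deuterosome from which new centrioles arise, stood at 13.4, 14.4, 22.5 and 46.1 CPM in the class and at 7.22, 7.08, 7.16 and 7.71 CPM elsewhere. The multiciliation genes differed in where they were read: DEUP1 was also present in neurons (8.87, 6.76, 8.32 and 6.74 CPM), whereas 74.3% of the CCNO UMIs and 82.3% of the CDC20B UMIs came from member-rich nuclei.

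The member-rich nuclei fell into those with and without CDC20B. 9 nuclei, 4 of PP121 replicate 1 and 5 of PP121 replicate 2, had at least 3 CDC20B UMIs, a limit also set after seeing the counts. They held 716 CDC20B UMIs, all 26 CCNO UMIs of the class in 6 of them, 21 FOXN4 UMIs in 6 of them and 70 GZMA UMIs in 8 of them. Members made up a median of 4.20% of their UMIs, from 2.27% to 7.07%, with a median of 49 of the 75 genes detected. The deposited cell cycle annotation placed 6 of them in G2M, 1 in S and 2 in G1. The other 30 nuclei, 2 and 1 of the control samples and 9 and 18 of the PP121 samples, had 1 CDC20B UMI and none of CCNO or FOXN4. Members made up a median of 1.61% of their UMIs, with 40 genes detected, and 25 of the 30 were annotated G1. CDC20B is itself a member, so the split bears on these shares. In the nucleus with the highest share it gave 349 of 907 member UMIs. The other motile cilia genes, which leave out CDC20B, made up medians of 4.27% in the 9 nuclei and 2.29% in the 30. Both kinds carried axonemal genes: HYDIN stood at 1848 and 1303 CPM, DNAH7 at 1426 and 1216 CPM and CFAP47 at 5986 and 1971 CPM with and without CDC20B. GMNC, the upstream regulator, had 13 UMIs in 3 of the 9 nuclei and 56 UMIs in 9 of the 30. Phase calls rest on few genes per nucleus, and TOP2A had 9 UMIs in the 9 nuclei and MKI67 1.

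**Figure D4:**
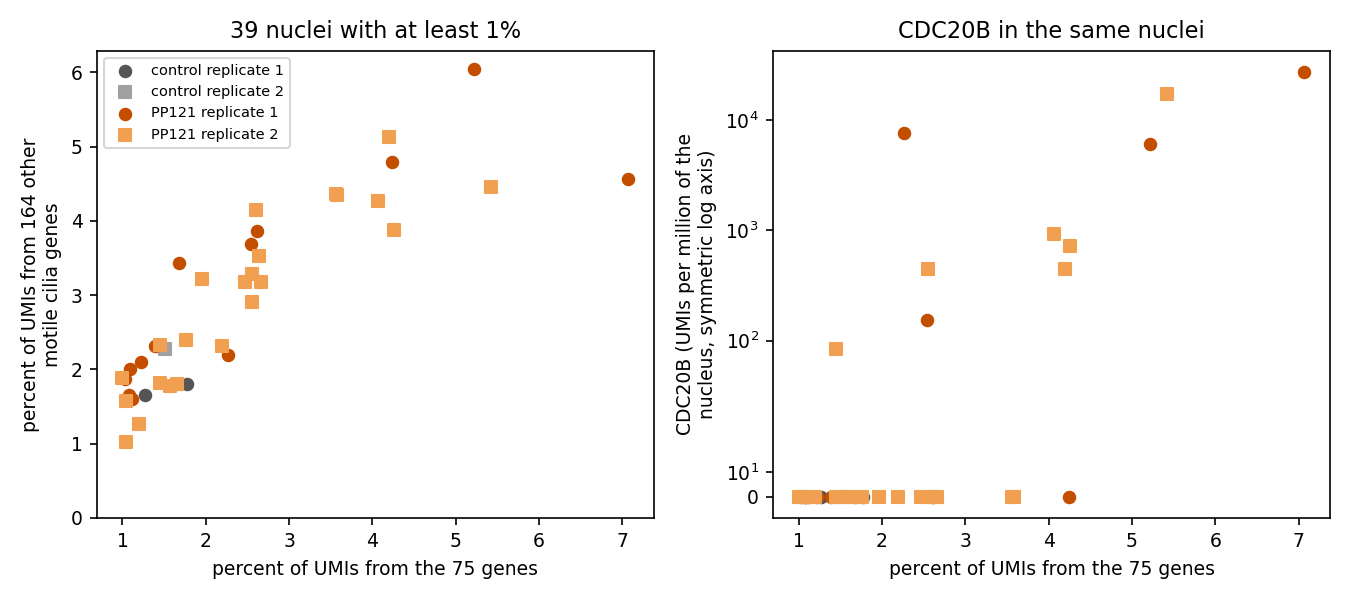
The 39 member-rich nuclei by sample, with their share of UMIs from the 75 genes (percent) against the share from the other motile cilia genes (left, percent) and against CDC20B (right, UMIs per 1000000 UMIs of the nucleus, symmetric log axis). The nuclei with at least 3 CDC20B UMIs are all of the PP121 samples, with member shares from 2.27% to 7.07%, and most others lie at 0 CDC20B. CDC20B is itself among the 75 genes.

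A second definition counted nuclei with a UMI of at least 2 of the 6 multiciliation genes. There were 2, 2, 10 and 11 such nuclei, 0, 0, 7 and 7 of them in the Unknown class, and 11 of the 25 were also member-rich. As shares of the annotated nuclei these were 0.0467%, 0.0660%, 0.218% and 0.378%. The exact 95% intervals were 0.00566% to 0.169% and 0.00800% to 0.238% in the control samples. They were 0.105% to 0.401% and 0.189% to 0.675% in the PP121 samples. The intervals of control replicate 1 and PP121 replicate 2 did not overlap, and those of every other pair between groups did. At 3 or more of the 6 genes there were 0, 0, 3 and 5 nuclei, 0 of 4283 and of 3030 allowing shares of up to 0.0700% and 0.0990%. With every nucleus thinned to 2000 UMIs the counts were 0, 0, 3 and 3, and 21, 18, 38 and 12 shallower nuclei were left out. Nuclei of the control samples that met the definition lay outside the Unknown class, where DEUP1 had a UMI in 3.22% to 4.04% of nuclei by sample.

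Other motile cilia genes, which neither definition used, were compared in both kinds of nuclei. In the 25 multiciliation nuclei they made up 0.336%, 0.543%, 2.74% and 2.82% of UMIs by sample, against 0.442%, 0.389%, 0.467% and 0.452% in the other nuclei, so they stood well above the other nuclei in the PP121 samples and not in control replicate 1. Pooled, they made up 2.47% against 0.44%. Of the 122 genes with at least 10 UMIs there, 121 had the higher level inside, with a median ratio of 6.92. Genes low in the multiciliation nuclei tend to miss that limit, as CCDC190 did with 0 UMIs inside and 8.81 CPM outside. The count and the median ratio are therefore a description, and nothing is read from them. The Unknown class without the multiciliation nuclei drew 0.798%, 0.704%, 0.947% and 1.18% of its UMIs from the list, more than the other nuclei as a whole. Between multiciliation nuclei and all others, the highest ratios belonged to ADGB, an androglobin of ciliated cells, at 430 against 2.43 CPM. SNTN, a protein of the ciliary tip, came next at 57.7 against 0.405 CPM. They were followed by DTHD1, C11orf88, CAPSL, TEKT1, EFCAB1 and TCTEX1D1, with ratios from 73.7 to 128. TEKT1, a tektin of the doublet wall, had 0, 1, 46 and 40 UMIs in these nuclei. In the 39 member-rich nuclei the list made up 1.73%, 2.27%, 3.34% and 3.11% of UMIs by sample. It made up 0.434% in all other nuclei. Of the 132 genes with at least 10 UMIs in the 39 nuclei, 130 were higher in them than in all other nuclei. Here too genes low in the chosen nuclei tend to miss the limit, so that count is a description. In the rest of the Unknown class, to which all 39 belong, the list made up 0.792%, 0.651%, 0.871% and 0.77%. Primary cilium genes differed far less: they summed to 6944 CPM in member-rich nuclei and to 3935, 3919, 3981 and 4116 CPM outside the Unknown class.

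Markers of other cell types were read in these nuclei and in the rest of the Unknown class. A roof plate list of 5 genes (LMX1A, MSX1, WNT1, RSPO2 and GDF7) summed to 495, 609, 729 and 891 CPM in the class. Elsewhere it summed to 10.6, 10.7, 15.4 and 15.7 CPM. The list was not particular to member-rich nuclei in the PP121 samples. It summed to 1321, 828, 755 and 852 CPM in them and to 490, 602, 726 and 906 CPM in the rest of the class. Within it LMX1A stood at 303, 310, 462 and 558 CPM in the class and at no more than 1.41 CPM outside it. A choroid plexus list of 6 genes summed to 156, 207, 151 and 1187 CPM in the class and to 189, 386, 274 and 3443 CPM in its member-rich nuclei. Its leading genes were TTR, a secreted thyroxine carrier, with 0, 6, 22 and 623 UMIs in member-rich nuclei, and HTR2C, a serotonin receptor, with 522 UMIs, all in PP121 replicate 2. The 522 UMIs came from 5 nuclei, 299 of them from 1, and 1 nucleus of that sample held 287 TTR UMIs. RFX3, a regulator of axonemal genes, was at 1422, 950, 1588 and 1113 CPM in the class and 434, 412, 471 and 443 CPM elsewhere. An ependymal list of 5 genes was lower in member-rich nuclei, at 277 CPM, than in progenitors, at 842 and 810 CPM. The testis germ cell list stayed at 14.7 CPM in member-rich nuclei, against 12.2 CPM outside the class, and the floor plate list at 27.5 against 82.3 CPM. Those 82.3 CPM were uneven: the floor plate list summed to 2873 CPM in epithelial nuclei and to 40.5 to 97.6 CPM in the other named classes. The epithelial list summed to 84.1 CPM in epithelial nuclei. The cell cycle list summed to 209 CPM in member-rich nuclei and 361 CPM in the rest of the class. The part of these marker levels in the member levels was not tested, and the class is left with the name that the annotation gives it.

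Between PP121 and control samples, the members taken over all annotated nuclei were mostly higher after PP121. 58 of the 73 members tested had a positive log2 fold change, with a median of 0.35, against a median of -0.01 over all genes. This contrast chose the members, so nothing is read from the counts that follow. edgeR's quasi-likelihood test with Benjamini-Hochberg adjustment called 0 of the 73 members, as it called 0% of all 24123 genes, while 20 members and 1113 of all genes had an unadjusted p under 0.05. DESeq2 called 6 members and 49 genes. With the replicate number as a block, edgeR called 7 members, all higher, against 0.883% of all genes, and the block without the member-rich nuclei called 3 against 1.25%.

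CDC20B stood at 1.26, 1.17, 16.6 and 10.1 CPM over all nuclei, a log2 fold change of 3.46 ± 0.31 (SE, n = 2 per group) that was 0.32 ± 0.36 without the Unknown class. CFAP299 stood at 2.40, 3.06, 11.5 and 32.3 CPM, with a log2 fold change of 3.03 ± 0.55 that was 1.29 ± 0.30 without the member-rich nuclei. CFAP47 stood at 15.2, 7.20, 32.7 and 65.9 CPM, with 2.17 ± 0.47 in all nuclei and 0.82 ± 0.36 without the member-rich nuclei. Control and PP121 samples did not overlap for these 3 genes, which were chosen with this difference known, so that is a description. Without the 39 nuclei their differences shrank by over 1 on the log2 scale.

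C4orf47 behaved otherwise: its difference was spread over the classes. It encodes CFAP96 (chr4:185408434-185449826), a protein of cilia and flagella. Over all nuclei it stood at 21.5, 18.2, 44.7 and 55.3 CPM, a log2 fold change of 1.35 ± 0.18, and of 1.20 ± 0.16 without the Unknown class. In neurons the values were 22.6, 21.1, 40.5 and 42.8 CPM, with 0.97 ± 0.14. Progenitor 1 had 17.4, 9.28, 38.3 and 26.9 CPM and progenitor 2 had 14.4, 15.5, 36.1 and 61.9 CPM, and in both progenitor classes summed the log2 fold change was 1.63 ± 0.24. Mesenchymal nuclei had 14.0, 14.4, 43.7 and 23.9 CPM. PP121 samples were above control samples in these classes without overlap, and the epithelial nuclei, with 7, 4, 1 and 25 UMIs, were the exception. C4orf47 was also chosen with the difference between the groups known, so the lack of overlap is a description.

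**Figure D5:**
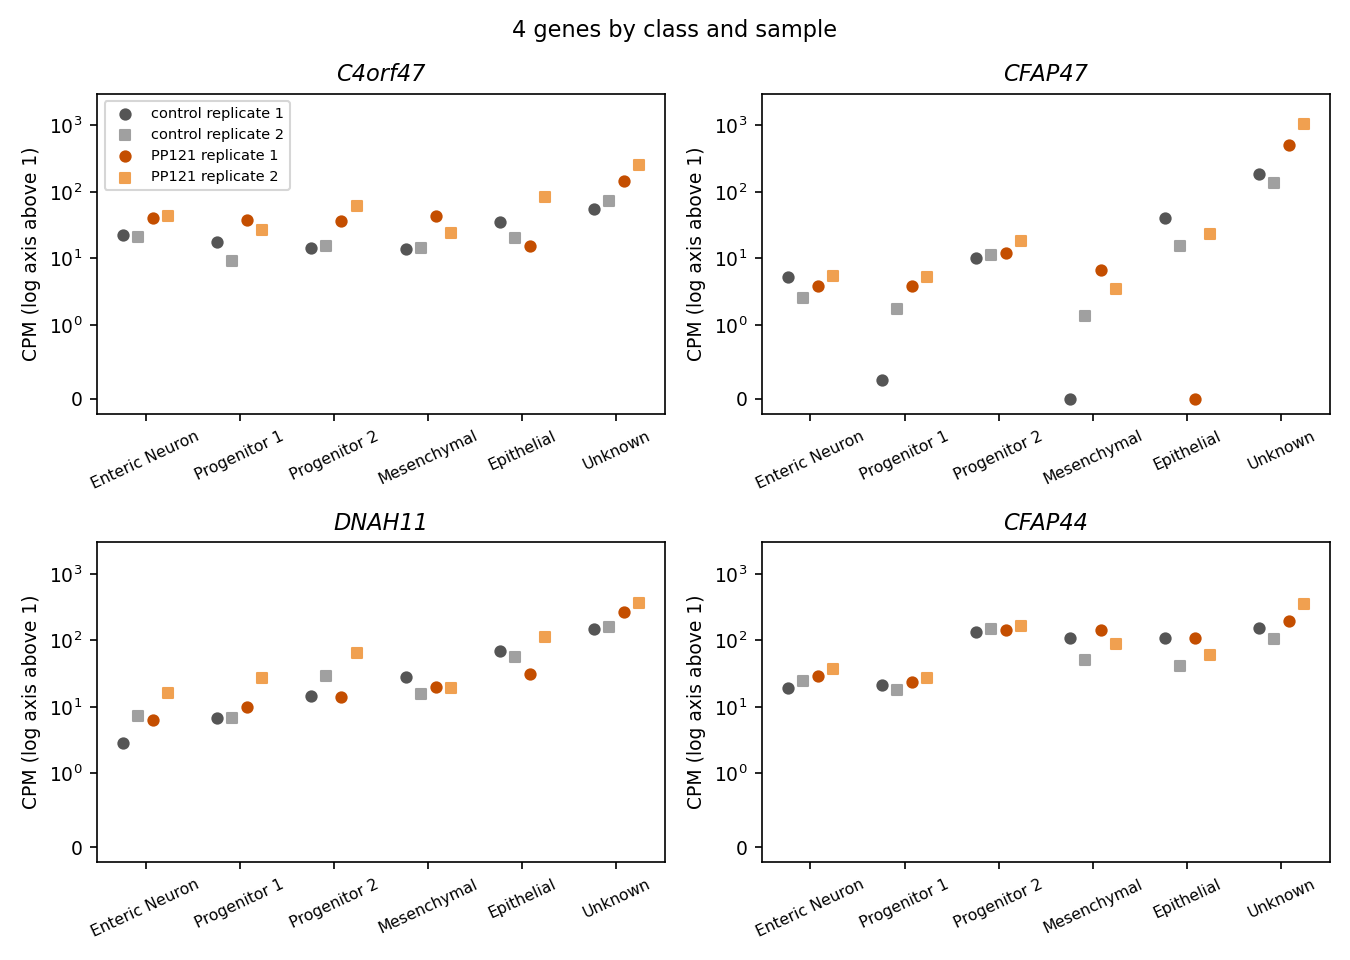
Level (CPM, axis logarithmic above 1) of C4orf47, CFAP47, DNAH11 and CFAP44 in the deposited classes, 1 point per sample by treatment and replicate. C4orf47 is higher after PP121 in neurons and both progenitor classes, CFAP47 is high in the Unknown class, DNAH11 is higher at day 38 in neurons, and CFAP44 is higher in progenitor 2 than in progenitor 1 and neurons.

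As in all classes, the calls in this contrast are printed and not read as a result. In enteric neurons, 37 of 68 members had a positive log2 fold change with a median of 0.08. edgeR called 0 of 68 members and 0% of all genes, with 7 members at an unadjusted p under 0.05 of 2549 genes, and DESeq2 called 1 member of 87 genes. With the block edgeR called 8 members, against 14.8% of all genes, 7 higher and 1 lower. Those named by rule were C4orf47, CFAP100, CFAP54, CFAP44, HYDIN and DNAH11 among the higher, and DNAH2, an inner arm chain at 62.0, 47.9, 38.4 and 36.1 CPM, as the lower. CFAP100, a regulator of inner arms, stood at 11.1, 10.2, 20.8 and 19.3 CPM. In the progenitors 42 of 68 members were positive with a median of 0.10. edgeR called 0 of 68, and 0% of all genes, with 6 members at an unadjusted p under 0.05 of 962 genes, DESeq2 called 1 of 40 genes, and the block called 3 members against 1.72% of all genes. CFAP54, a central apparatus gene, stood at 2.78, 3.01, 4.27 and 4.27 CPM in progenitor 1 and at 20.5, 20.9, 40.2 and 36.3 CPM in progenitor 2.

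In the Unknown class 61 members passed the filter on low counts and were tested. All 61 had a positive log2 fold change, with a median of 1.35 against 0.00 over all genes. Without that filter 71 of 75 members were positive. High counts in the PP121 samples can help a member pass the filter, so these counts are a description. edgeR called 1 member, CDC20B, which was the 1 gene called of 13574 (0.00737%). An unadjusted p under 0.05 was found for 39 members among 1108 genes. With the block edgeR called 31 members, all higher, against 2.4% of all genes. Without the member-rich nuclei the median log2 fold change was 0.32, 40 of 50 members were positive, and edgeR called 0, also with the block, which called 0.515% of all genes. The unadjusted p was then under 0.05 for 7 members among 733 genes without the block and 10 among 977 with it.

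The day of collection was not used to choose the members, and it was compared within the same 4 samples as day 38 minus day 42. Over all nuclei 3 members among 3179 genes had an unadjusted p under 0.05, and DESeq2 called 0 members. edgeR called 0 of 73, against 0.721% of all genes. With the treatment as a term it called 2 of 73, below the background of 5.52%. These were CFAP299, higher at day 38 with a log2 fold change of 1.13 ± 0.25 (adjusted p = 0.035, edgeR), and DNAH17, lower with -0.62 ± 0.14 (adjusted p = 0.037, edgeR). Without PP121 replicate 2, and with no treatment term, the CFAP299 difference turned to -1.12. DNAH17 stood at 24.9, 15.4, 20.3 and 12.5 CPM, lower in replicate 2 of both groups.

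DNAH11 (chr7:21543039-21901839) had the smallest adjusted p by day in neurons and in progenitors once treatment was a term. In neurons it stood at 2.85, 7.40, 6.36 and 16.1 CPM, so that replicate 2 was higher within each group. In progenitor 1 it stood at 6.82, 6.77, 9.97 and 27.3 CPM and in progenitor 2 at 14.7, 29.2, 14.0 and 63.8 CPM. In neurons without a treatment term, 5 members among 1574 genes had an unadjusted p under 0.05, and DESeq2 called 0 members. There edgeR called 0 of 68, as it did 0% of all genes. With that term it called 5 of 68, against 9.49% of all genes, among them DNAH11 with a log2 fold change of 1.41 ± 0.21 (adjusted p = 3.4e-05, edgeR) and CFAP58, a protein of the sperm flagellum, with 1.34 ± 0.25 (adjusted p = 0.00062, edgeR). The others were DNAH14 with 0.36 ± 0.09, DNAH17 with -0.44 ± 0.14 and CFAP97 with -0.42 ± 0.13.

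In progenitors 3 members among 2248 genes had an unadjusted p under 0.05 by day, and DESeq2 called 1 member. edgeR called 0 of 68, again with 0% of all genes. With the treatment term it called 2 against 2.99% of all genes, DNAH11 with 1.54 ± 0.24 (adjusted p = 5.4e-05, edgeR) and FOXN4 with 2.10 ± 0.57 (adjusted p = 0.029, edgeR). FOXN4 was near the limit of detection, with 5, 12, 10 and 29 UMIs in both progenitor classes together. In the Unknown class 4 members among 668 genes had an unadjusted p under 0.05, and DESeq2 called 0 members. edgeR called 0 of 61, with 0% of all genes. With the treatment term it called 5, against 1.72% of all genes, led by CFAP299 with 2.05 ± 0.29 (adjusted p = 2.0e-06, edgeR) and SPAG6 with 1.60 ± 0.34 (adjusted p = 0.0024, edgeR), followed by RSPH1, CFAP77 and SPAG17. Without PP121 replicate 2, and with no treatment term, the differences in the class turned to -1.12 for CFAP299, -0.19 for RSPH1 and -0.52 for SPAG17. Without the member-rich nuclei none of the 50 members tested was called with or without the term, and 4 and 7 had an unadjusted p under 0.05. Day, differentiation and the number of member-rich nuclei, 13 and 23 in the PP121 samples, cannot be told apart here.

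Neurons and progenitors are classes drawn on the same counts, so their comparison is a description. With the sample as a block, 27 of 68 members were called between them, against 47.8% of all genes, 14 higher in neurons and 13 higher in progenitors. Of the called members with a mean of at least 5 CPM, those with the largest difference towards neurons were DNAH2 with a log2 fold change of 1.11 ± 0.12, DEUP1 (0.67 ± 0.20), DNAH10 (0.65 ± 0.11), DNAH17 (0.59 ± 0.11), CFAP206 (0.54 ± 0.13) and RSPH14 (0.46 ± 0.15). By the same rule progenitors were higher for CFAP44 (-1.82 ± 0.13), DNAH11 (-1.45 ± 0.17), CFAP54 (-1.41 ± 0.13), HYDIN (-1.07 ± 0.12), CFAP47 (-1.002 ± 0.19) and DNAI1 (-0.91 ± 0.17). Of the other motile cilia genes 67 of 144 were called, 22 higher in neurons and 45 in progenitors.

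The comparison of both progenitor classes was added after seeing the data. Between progenitor 2 and progenitor 1, 32 of 67 members were called, a smaller share than the 55.3% of all genes. Of the 32 members 28 were higher in progenitor 2, and of all genes called 5551 were higher and 5000 lower there. The median log2 fold change was 0.73 over the members and 0.03 over all genes. CFAP44, a tether of the inner arms, stood at 135, 149, 145 and 162 CPM in progenitor 2 and at 21.0, 18.1, 23.6 and 26.9 CPM in progenitor 1, a log2 fold change of 2.69 ± 0.12. Of the other called members with a mean of at least 5 CPM, CFAP54 had 3.01 ± 0.18, CFAP47 2.24 ± 0.32, HYDIN 2.13 ± 0.16, DNAH6 2.07 ± 0.22 and DNAI1 2.06 ± 0.21. The 4 lower members were CFAP20 (-0.93 ± 0.12), CFAP77 (-0.47 ± 0.18), SPAG17 (-0.46 ± 0.17), which was nonetheless higher in both progenitor classes than in neurons, and DNAH2 (-0.36 ± 0.15). Other motile cilia genes showed the same split, 70 higher and 8 lower of 78 called among 128. Individual nuclei of progenitor 2 stayed low, with a median of 0.13% and a maximum of 0.595% of UMIs from members, so no nucleus of the class reached 1%. CFAP44 stood at 155, 104, 193 and 356 CPM in the Unknown class. CDC20B stood at 1.57, 0.740, 1.01 and 1.08 CPM in progenitor 2.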

How the data were processed

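Nuclei of 4 samples were counted and annotated by the authors. The submitters' processing notes name Cell Ranger, GRCh38 and Seurat 4.0.4, whereas the methods of the paper name kallisto and bustools for the count matrices, and which of them made the deposited counts was not settled here. The deposited values are raw UMI counts per gene and nucleus, with the class, phase and day of each nucleus in the deposited annotation. The authors also deposited the percent of mitochondrial and ribosomal protein UMIs per nucleus, computed in Seurat. Whether introns and strand were used in counting is not given in the sources used here, which can affect long, overlapping or antisense genes. Nuclei that the annotation calls Filtered were left out and no doublet caller was run.

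The members and lists were chosen with earlier results of these data known. Counts were summed per sample and class and tested over all genes with edgeR 4.0.16 in R 4.3.3 (TMM, filterByExpr, quasi-likelihood test, Benjamini-Hochberg adjustment, threshold 0.05), with DESeq2 1.42.0 as an alternative. The script was tested on simulated data. CPM are UMIs per 1000000 UMIs of the same nuclei. Shares are given in percent with exact 95% intervals, and the limit for a count of 0 is 3 counts. Named were the 10 genes listed by symbol; per comparison up to 6 members with the largest rise and up to 6 with the largest fall among those called at a mean of 5 CPM or more, with or without the block, or else the 3 with the smallest p; the 3 members with the most UMIs per class; and up to 8 other motile cilia genes by ratio in multiciliation nuclei, at 10 UMIs or more. Further members were named by role after their values were seen. The replicate number is the dated day in both groups, so it pairs the samples: same-numbered samples deviated together with a correlation of 0.656 over all nuclei, 0.514 in neurons and 0.0545 in the Unknown class.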

Additional observations from a re-analysis of the deposited data

Results flagged for a closer look

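Nuclei that the annotation leaves out were not part of any comparison above. Among those left out although they had more detected genes than the study's lower limit, 1 of 160 in PP121 replicate 1 and 2 of 113 in PP121 replicate 2 drew at least 1% of their UMIs from the 75 genes. In the control samples there were 0 of 646 and 0 of 341, which allows shares of up to 0.464% and 0.880%. With at least 2 of the 6 multiciliation genes, nuclei of the same kind numbered 3 of 646 and 0 of 341 in the control samples and 5 of 160 and 4 of 113 in the PP121 samples. Among all deposited nuclei, shallower ones included, 5 of 8531, 4 of 4846, 20 of 6987 and 38 of 4942 reached 1%, so nuclei left out of the annotation reached it in the control samples too. They stand here as a signal outside the annotated nuclei, and the difference between groups was not tested.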

How the results depend on the processing

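The number of members called depended on the fit, and the cause was not tested except where nuclei or samples were left out. Brackets hold the share of all genes called in the same fit. Between PP121 and control over all nuclei, 0 members became 6 with DESeq2 (0.203%) and 1 without a filter on low counts (0.00304%). In neurons 0 became 1 with DESeq2 (0.41%) and 1 without the filter (0.218%). In progenitors 0 became 1 with DESeq2 (0.197%) and 3 without the filter (0.866%). In the Unknown class 1 became 14 with DESeq2 (0.427%) and 36 without the filter (1.85%). It became 0 with at least 10 counts in every sample, without the multiciliation nuclei or without the member-rich nuclei, each at 0% of all genes. The block without the member-rich nuclei also called 0 there (0.515%). With the replicate number as a block, which pairs the samples by day, the counts were 7 over all nuclei (0.883%) and 8 in neurons (14.8%). They were 3 in progenitors (1.72%) and 31 in the Unknown class (2.4%). With the block over all nuclei, 5 were called without the Unknown class (2.12%) and 3 without the member-rich nuclei (1.25%). The members were chosen with this contrast known, so nothing is read from these counts. Between the days, treatment as a term gave 2, 5, 2 and 5 members over all nuclei, in neurons, in progenitors and in the Unknown class, DESeq2 gave 1 in progenitors, and leaving out a replicate gave 0 to 10, 0 to 2, 0 to 2 and 0 to 28, with 10 and 28 without control replicate 2. With a replicate left out, the log2 day difference without a treatment term ran from -1.12 to 2.96 for CFAP299 over all nuclei and, in the Unknown class, from -1.12 to 5.69 for CFAP299, from -0.19 to 2.62 for RSPH1 and from -0.52 to 2.01 for SPAG17, each negative value being that without PP121 replicate 2. Between neurons and progenitors 27 (47.8%) became 17 without the sample as a block (36%), and 20 to 23 with a replicate left out. Between the progenitor classes 32 became 18 with at least 10 counts in every sum. The pooled share of multiciliation nuclei was 0.28% after PP121 and 0.0547% in controls; at 3 genes it was 0.107% and 0%, and after thinning 0.0805% and 0%. The pooled share of member-rich nuclei was 0.48% and 0.041%; at a limit of 0.5% it was 1.32% and 0.547%, at 2% it was 0.253% and 0%, and after PP121 it was 0.283% to 0.79% with a replicate left out. Other motile cilia genes made up 3.93% of UMIs in nuclei with 3 of the 6 genes. Of 577 values for single genes under alternatives, 472 counted as the same as in the main fit. In the PP121 contrasts this meant a log2 fold change within 1 SE of the main fit, and 38 values lay outside it. In the other comparisons it meant the same direction and call. There 4 values reversed direction, 34 lost a call and 29 gained one. Depth limits CCNO, MCIDAS, FOXN4 and FOXJ1, which rest on few UMIs.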
